A study of Homo sapiens with 14 samples.

Results

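The genes described here take up, store, export and sense iron in human cells. The set comprised 10 genes taken by symbol, by a rule that uses no measured value but was drawn up with earlier results of these data known, out of 23106 genes in each library: TF, TFRC, SLC11A2, FTH1, FTL, NCOA4, SLC40A1, IREB2, ACO1 and FBXL5. All 10 were found in the count data of every library. Their transcripts were measured in PC3 cells, a line from a human prostate carcinoma, and in HCT116 cells, a line from a human colorectal carcinoma. Wild-type cells of each line were held for 16 h at 21% O2 (normoxia) or at 0.5% O2 (hypoxia), with 4 biological replicates of each condition for PC3 and 3 for HCT116. PC3 grew in DMEM/Ham's F12 and HCT116 in McCoy's 5a, both with fetal bovine serum, so line and medium cannot be told apart, and each line stands for a single established culture rather than for its tissue.

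Most cells import iron bound to transferrin, which the transferrin receptor carries into endosomes, and they keep what they do not use inside ferritin, a hollow shell of heavy and light chains. The supply is balanced by the iron regulatory proteins IRP1 and IRP2, which bind a hairpin in messenger RNA, the iron-responsive element (IRE), when iron is scarce. Binding near the 5′ end blocks translation of the ferritin chains and of the exporter, whereas binding in the 3′ UTR protects TFRC mRNA from decay. TFRC is also known as a target of the hypoxia-inducible factor HIF, and the system therefore stands where iron and oxygen sensing meet.

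The IREs are shown because they are the element through which the IRPs are known to act on the ferritin chains, the exporter and TFRC. A canonical IRE was sought in the UTRs of 1 transcript per gene, as an unpaired C, 5 paired bases, the 6-base loop CAGTGN and 5 bases that pair back. Of the 10 genes, 5 held a match, with 4 matches in the 3′ UTR of TFRC alone. In the sequences below, read 5′ to 3′ as DNA on the strand of the gene and placed on GRCh37, capitals mark the unpaired C and the loop.
FTH1 5′ UTR, exon 1 of 4, chr11:61735046-61735074, minus strand: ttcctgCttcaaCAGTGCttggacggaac
FTL 5′ UTR, exon 1 of 4, chr19:49468592-49468620, plus strand: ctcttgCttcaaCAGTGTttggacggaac
SLC40A1 5′ UTR, exon 1 of 8, chr2:190445387-190445415, minus strand: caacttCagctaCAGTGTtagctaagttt
TFRC 3′ UTR, exon 19 of 19, chr3:195777850-195777878, minus strand: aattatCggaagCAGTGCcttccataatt
TFRC 3′ UTR, exon 19 of 19, chr3:195777446-195777474, minus strand: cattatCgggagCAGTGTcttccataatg
TFRC 3′ UTR, exon 19 of 19, chr3:195777381-195777409, minus strand: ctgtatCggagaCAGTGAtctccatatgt
TFRC 3′ UTR, exon 19 of 19, chr3:195777334-195777362, minus strand: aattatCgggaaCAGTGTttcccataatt
From the unpaired C onwards, the elements of FTH1 and FTL differ at 1 of 23 positions, the last base of the loop. A further match lay in the 3′ UTR of TF, in a transcript of 20166 bases from a gene whose annotation overlaps SRPRB. SLC11A2, NCOA4, IREB2, ACO1 and FBXL5 had no match in the transcript searched, and their other transcripts were not searched. The pattern is strict, and EPAS1, listed below among genes with a known IRE, had no match either. The lack of a match therefore does not show the lack of an IRE. Over all 19528 transcripts searched, 18 (0.0922%) held a match in the 5′ UTR and 122 (0.625%) in the 3′ UTR. A match is a description of the letters and not a measurement of binding.

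The promoter of TFRC is shown around the letters ACGTG, a core to which HIF is known to bind, because TFRC was the gene whose response to hypoxia differed between the lines. Capitals mark ACGTG, whose first base lies 88 bases before the start of the gene in RefSeq (sequence from the GRCh38.p14 table, placed on GRCh37 by exact match).
TFRC promoter, chr3:195809033-195809061, minus strand: cctcgcgagcgtACGTGcctcaggaagtg
Within 250 bases before a start, on either strand, ACGTG was also found for FTL and FBXL5, that is in 3 of the 9 genes with an entry. These 9 genes have 15 promoter entries between them, and 18.5% of all 35116 promoter entries hold ACGTG. The first share is thus per gene and the second per entry. When GCGTG was counted as a core as well, SLC11A2, IREB2 and ACO1 also held a match, and 43.2% of all promoter entries did. No entry for FTH1 was used here.

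The libraries held between 71228454 and 123935458 counts in PC3, where every hypoxic library was shallower than every normoxic one, and between 133067391 and 150630928 in HCT116. Levels are given in CPM (counts per 1000000 counts of a library, scaled by TMM over all 14 libraries). All of 8 known HIF targets (CA9, NDRG1, ANKRD37, EGLN3, PDK1, BNIP3, ADM and VEGFA) rose in hypoxia in both lines, with log2 fold changes of 0.65 to 2.87 in PC3 and 1.10 to 6.03 in HCT116, all past the threshold of adjusted p = 0.05 (edgeR). The prostate marker HOXB13 stood at 61.9 to 92.9 CPM in PC3 and 9.57 to 10.9 CPM in HCT116, while KLK3 was at 0 in PC3. The intestinal factor CDX2 stood at 16.2 to 20.9 CPM in HCT116 and at 0 in PC3, while CDX1 was at 0 in HCT116. Summed CPM over 8 markers of other cell types ranged from 44.2 to 49.6 in normoxic and 51.2 to 60.8 in hypoxic PC3, and from 17.3 to 20.2 and 22.5 to 23.0 in HCT116. Most of that sum in PC3 came from CD68 (35.0 to 52.5 CPM). The part of these markers in the changes below was not tested. In such bulk samples, fewer cells with a transcript and less of it per cell cannot be told apart.

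The 2 lines moved TFRC, the gene of the transferrin receptor, in opposite directions in hypoxia, and this difference was the only one among the 9 genes tested that passed the threshold without a replicate term. In PC3, TFRC and the endosomal iron transporter SLC11A2 fell, by log2 fold changes of 0.46 and 0.51 respectively. In HCT116, TFRC and the ferritin heavy chain FTH1 rose, by 0.46 and 0.27. With all libraries and no replicate term, FTH1 did not pass in PC3. The paired fit below called FTH1 higher in PC3 (log2 0.40, adjusted p = 0.00677, edgeR), with FTL higher and SLC40A1 lower. The difference of the FTH1 response between the lines did not pass the threshold. The mRNAs of the sensors IREB2, ACO1 and FBXL5 did not pass the threshold of adjusted p in either line by edgeR or by DESeq2 (at an unadjusted p under 0.05, IREB2 in PC3 alone did, with 0.0170), though IREB2 did in PC3 in the paired fit below. Transferrin itself was near absent from both.

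**Figure D1:**
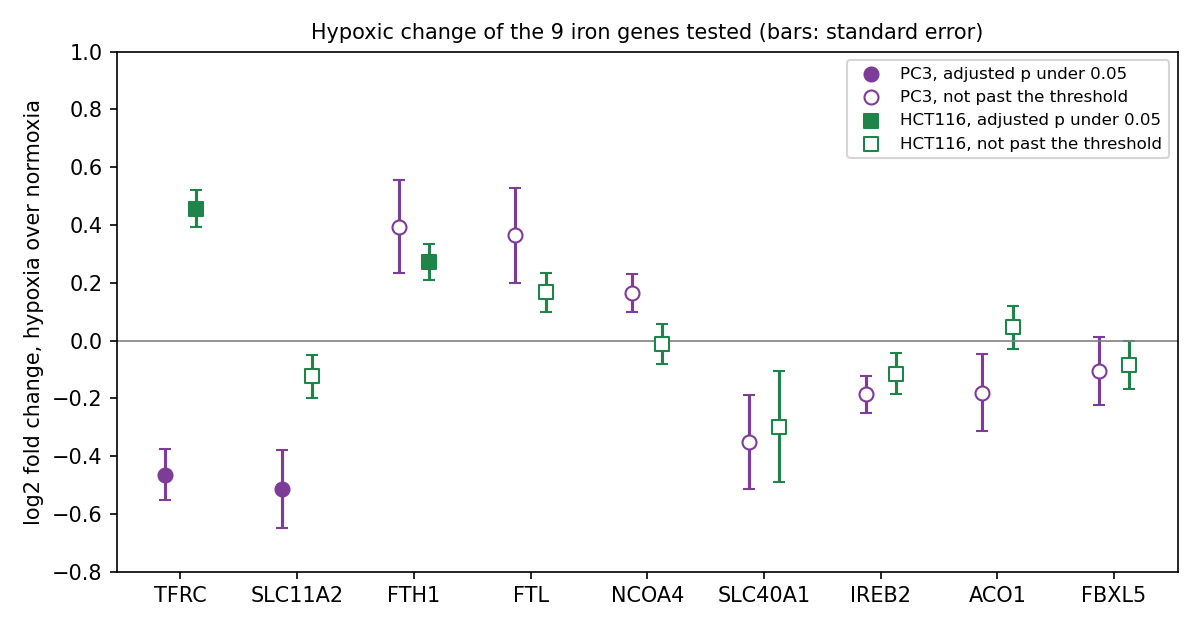
Log2 fold change of hypoxia over normoxia (y axis) for the 9 iron genes tested (x axis), with circles for PC3 (n = 4 per condition), squares for HCT116 (n = 3 per condition) and bars for the standard error. Filled symbols mark an adjusted p under 0.05 by edgeR. TFRC lies at −0.46 in PC3 and at 0.46 in HCT116, and the other 8 genes lie between −0.51 and 0.39.

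Hypoxia was compared with normoxia in each line by edgeR's quasi-likelihood test, with p-values adjusted over all genes tested. In PC3, 2 of 9 genes were called, both lower, where 5.29% of all genes tested were called lower and 11.3% in either direction. The median log2 fold change of the 9 genes was −0.18, beside 0.00 over all genes. In HCT116, 2 of 9 were called, both higher, against a background of 14.6% called higher and 25.9% called in all, so that a share of this size in HCT116 is close to the background. The median of the 9 was −0.01 there. Of the differences between the lines (HCT116 minus PC3, over all 14 libraries), 1 of 9 was called, and it was higher in HCT116, against 2.32% of all genes called in either direction (1.31% higher and 1.01% lower).

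With the replicate number as a block, which pairs the PC3 cultures, 6 of the 9 genes were called in PC3, where the same fit called 28.5% of all genes tested (14.9% higher and 13.6% lower). TFRC (adjusted p = 0.00248, edgeR) and SLC11A2 (7.25e-04) were joined by IREB2 (0.0246) and SLC40A1 (0.0490) on the lower side and by FTH1 (0.00677) and FTL (0.0211) on the higher side. Without both libraries of PC3 replicate 1, an alternative chosen after seeing the data, 3 were called, namely TFRC, SLC11A2 and FTH1, where 12.5% of all genes were.

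TF encodes transferrin, the iron carrier that the liver secretes into blood and that serum brings into culture medium. It had 0 to 4 counts in every library, with 1 count in each of 2 PC3 libraries and none in the other 6. The HCT116 libraries held 0, 4 and 4 counts in normoxia and 1, 0 and 3 in hypoxia. These counts lie below, at or just above the limit of 3 counts that a count of 0 allows (0.0199 to 0.0421 CPM, counting error only). TF was therefore not tested and no fold change is given. Its annotation also overlaps SRPRB.

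TFRC encodes the receptor that binds and internalises transferrin. In normoxic PC3, TFRC stood at 817, 966, 947 and 835 CPM in replicates 1 to 4. In hypoxic PC3 it stood at 649, 715, 624 and 588 CPM. All hypoxic libraries were thus below all normoxic ones, and every pair of cultures moved downwards. The mean went from 891 ± 76.0 to 644 ± 53.5 CPM (SD, n = 4), a log2 fold change of −0.46 (SE 0.0878, adjusted p = 0.0118, edgeR), or 1.38-fold lower. The call was lost without PC3 normoxia replicate 2 (adjusted p = 0.0513, edgeR) or replicate 3 (0.0522), at log2 fold changes of −0.42 and −0.43.

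In HCT116 the order was the reverse. TFRC stood at 868, 920 and 846 CPM in normoxia. In hypoxia it stood at 1177, 1239 and 1155 CPM. The conditions did not overlap, and the 3 hypoxic libraries were the highest of all 14. The mean rose from 878 ± 38.2 to 1191 ± 43.7 CPM (SD, n = 3), a log2 fold change of 0.46 (SE 0.0648, adjusted p = 6.16e-04, edgeR), or 1.37-fold.

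Between the lines the response of TFRC differed by 0.91 on the log2 scale (SE 0.121, 95% interval 0.65 to 1.17, adjusted p = 8.47e-04, edgeR). The difference stayed between 0.87 and 0.96 and past the threshold of adjusted p in each of the alternatives run, with each library left out as well. The starting level did not separate the lines: in normoxia TFRC differed by 0.02 between PC3 and HCT116 (95% interval −0.16 to 0.20, adjusted p = 0.82, edgeR), and the sign of this small difference turned under upper-quartile scaling (−0.04). In order of level, HCT116 in hypoxia was highest and PC3 in hypoxia lowest, and the normoxic groups between them overlapped. By the GENCODE annotation, TFRC spans chr3:195739382-195809024 on GRCh37. Its start there lies further upstream than the RefSeq start used for the promoter above.

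**Figure D2:**
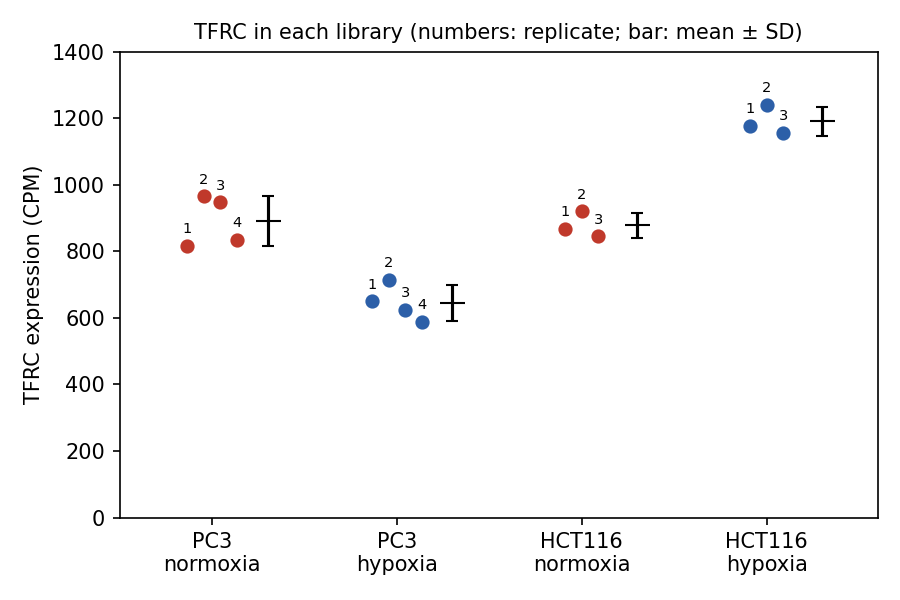
TFRC expression in CPM (y axis, from 0) in each library, by line and condition (x axis). Numbers are replicates, red is normoxia, blue is hypoxia, and the bar beside each group is the mean ± SD. The normoxic groups overlap at 817 to 966 and 846 to 920 CPM, hypoxic PC3 lies below them at 588 to 715 and hypoxic HCT116 above them at 1155 to 1239.

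The 3 genes whose centred log2 CPM most resembled that of TFRC over the 14 libraries, each gene set to the mean of its line, were ADCK5 (Pearson r = 0.933), ZNF266 (0.928) and ZNF776 (0.926), out of 11967 genes compared. These libraries share line and condition, and the values are a description.

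SLC11A2 (also called DMT1) encodes the transporter that moves iron out of the endosome once transferrin has released it. In normoxic PC3 it stood at 78.3, 58.3, 61.9 and 54.9 CPM, with replicate 1 the highest. In hypoxic PC3 it stood at 52.1, 41.7, 44.5 and 38.6 CPM. The groups did not overlap and all 4 pairs fell, by 0.48 to 0.59 on the log2 scale. The mean went from 63.4 ± 10.4 to 44.2 ± 5.78 CPM (SD, n = 4), a log2 fold change of −0.51 (SE 0.136, adjusted p = 0.0402, edgeR). This call was lost when any of 6 libraries was left out, namely PC3 normoxia replicates 1, 2 or 3 (adjusted p = 0.0583, 0.0786 and 0.101, edgeR) or PC3 hypoxia replicates 2, 3 or 4 (0.113, 0.0810 and 0.0722), at log2 fold changes of −0.39 to −0.55.

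In HCT116, SLC11A2 stood at 43.9, 48.8 and 40.7 CPM in normoxia and at 41.3, 40.1 and 39.6 CPM in hypoxia. These groups overlapped, and the log2 fold change was −0.12 (95% interval −0.29 to 0.04, adjusted p = 0.246, edgeR). The difference between the lines was 0.38 (SE 0.168) and passed the threshold with the replicate block (adjusted p = 0.021, edgeR), which called 8.43% of all genes for this difference, though not without it (0.28). That block also pairs the HCT116 libraries by number, and these numbers did not pair the cultures throughout (r = 0.0664, 0.373 and −0.0751). In normoxia, SLC11A2 was 1.43-fold higher in PC3 than in HCT116 (log2 0.51, adjusted p = 0.00106, edgeR).

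FTH1 encodes the ferritin heavy chain, which oxidises iron as it enters the shell. In normoxic PC3, FTH1 stood at 8338 CPM in replicate 1 and at 5794, 5775 and 5808 CPM in replicates 2 to 4. In hypoxic PC3 it stood at 10177, 7778, 7156 and 8559 CPM. Replicate 1 was the highest in both conditions, so the groups overlapped although each hypoxic culture was above its normoxic partner. The log2 fold change was 0.39 (SE 0.161, adjusted p = 0.149, edgeR), which did not pass the threshold. It did with the replicate block (0.40, adjusted p = 0.00677, edgeR), without both libraries of replicate 1 (0.44, 0.0181) and without PC3 normoxia replicate 1 (0.55, 0.0289).

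In HCT116, FTH1 stood at 1829, 1746 and 1880 CPM in normoxia. In hypoxia it stood at 2095, 2173 and 2245 CPM, above all normoxic libraries. The rise was 0.27 on the log2 scale (SE 0.062, adjusted p = 0.00872, edgeR), or 1.21-fold. It was no longer called without HCT116 normoxia replicate 2 (0.23, adjusted p = 0.0655, edgeR), or in a single fit over both lines, which share one spread (0.26, 0.295). The difference of the response between the lines was −0.13 (95% interval −0.55 to 0.29, adjusted p = 0.815, edgeR).

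FTL encodes the ferritin light chain, which helps the iron core form. In PC3 it stood at 483, 384, 360 and 454 CPM in normoxia and at 549, 472, 425 and 709 CPM in hypoxia. The groups overlapped, with each hypoxic culture above its partner, and replicate 4 was the highest of the hypoxic libraries. The log2 fold change was 0.36 (SE 0.164, adjusted p = 0.184, edgeR), and with the replicate block 0.35 (0.0211). In HCT116, FTL stood at 1438, 1572 and 1541 CPM in normoxia and at 1594, 1759 and 1700 CPM in hypoxia. These did not overlap, but the log2 fold change of 0.17 (SE 0.0667, adjusted p = 0.0876, edgeR) did not pass the threshold.

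The make-up of ferritin mRNA was the widest contrast between the lines among the 9 genes tested. In normoxia, FTH1 was 3.54-fold higher in PC3 than in HCT116 (log2 1.82, SE 0.147, adjusted p = 1.44e-08, edgeR), while FTL was 3.61-fold lower (log2 −1.85, SE 0.146, adjusted p = 1.11e-08). The ratio of FTH1 to FTL counts per kb of transcript lay between 8.74 and 13.4 in the 8 PC3 libraries and between 0.804 and 0.956 in the 6 HCT116 libraries. By these counts the heavy chain exceeded the light chain in PC3, and the 2 were close to even in HCT116. Reads lost to the near-identical copies described below may differ between the 2 genes, so the ratio within a line is uncertain. FTH1 alone made up 0.608% to 1.03% of all counts in PC3 and 0.177% to 0.214% in HCT116.

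**Figure D3:**
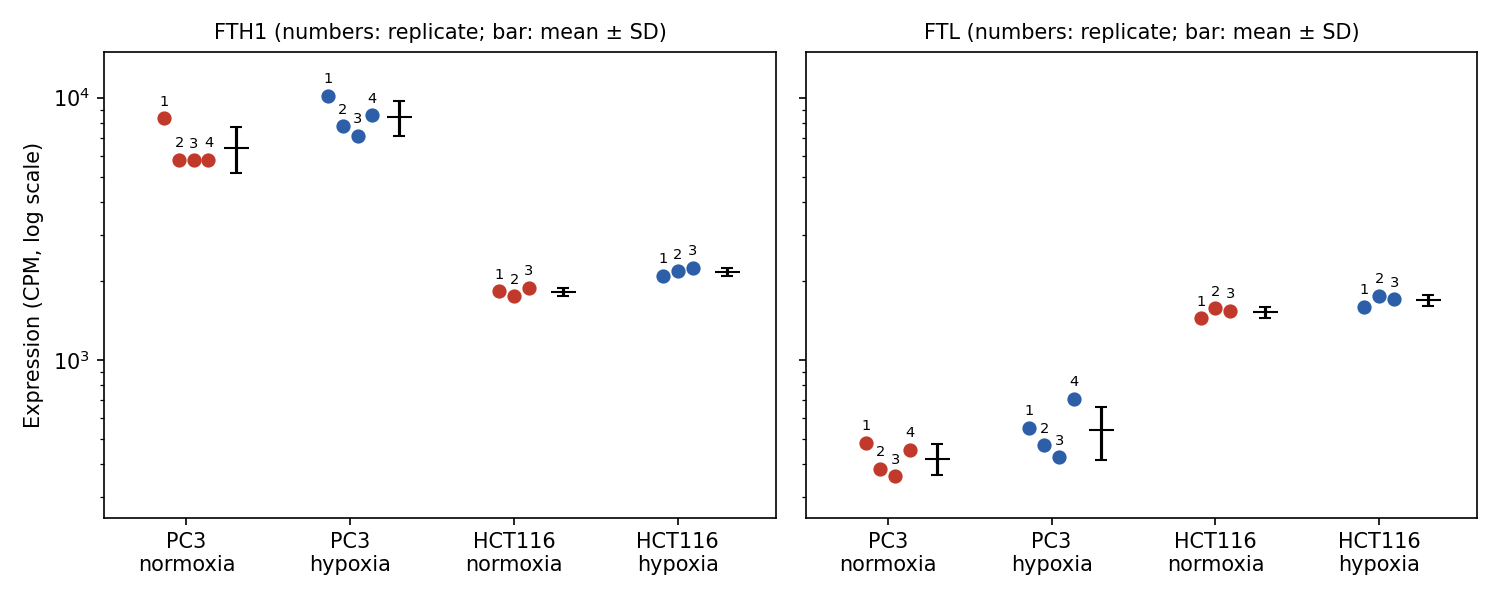
FTH1 (left) and FTL (right) expression in CPM on a shared log axis in each library, by line and condition. Numbers are replicates, red is normoxia, blue is hypoxia, and bars are the mean ± SD. FTH1 is higher in PC3 (5775 to 10177 CPM) than in HCT116 (1746 to 2245 CPM), and FTL is lower in PC3 (360 to 709 CPM) than in HCT116 (1438 to 1759 CPM).

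Both ferritin genes have many near-identical processed copies in the genome, and reads that match them could have been split or dropped in counting, so their levels are uncertain. Of the copies counted here, FTH1P3 had 56 to 145 counts per library, beside at least 246375 for FTH1, and FTH1P18, FTHL17, FTLP10 and the mitochondrial ferritin gene FTMT had none. BEST1, which overlaps FTH1 on the opposite strand, had 2 to 149 counts. The genes most like FTH1 over the 14 libraries by the measure used for TFRC were PHLDA3 (r = 0.965), TMED9 (0.961) and DUSP1 (0.959).

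The level of the receptor transcript against that of the heavy chain was taken within each library. TFRC counts per 1000 FTH1 counts were 97.96, 167, 164 and 144 in normoxic PC3. In hypoxic PC3 they were 63.8, 91.9, 87.3 and 68.7, below every normoxic library. In HCT116 they were 474, 527 and 450 in normoxia and 562, 570 and 515 in hypoxia. The HCT116 conditions overlapped, since normoxia replicate 2 was above hypoxia replicate 3. The ratio is a description without a test.

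**Figure D4:**
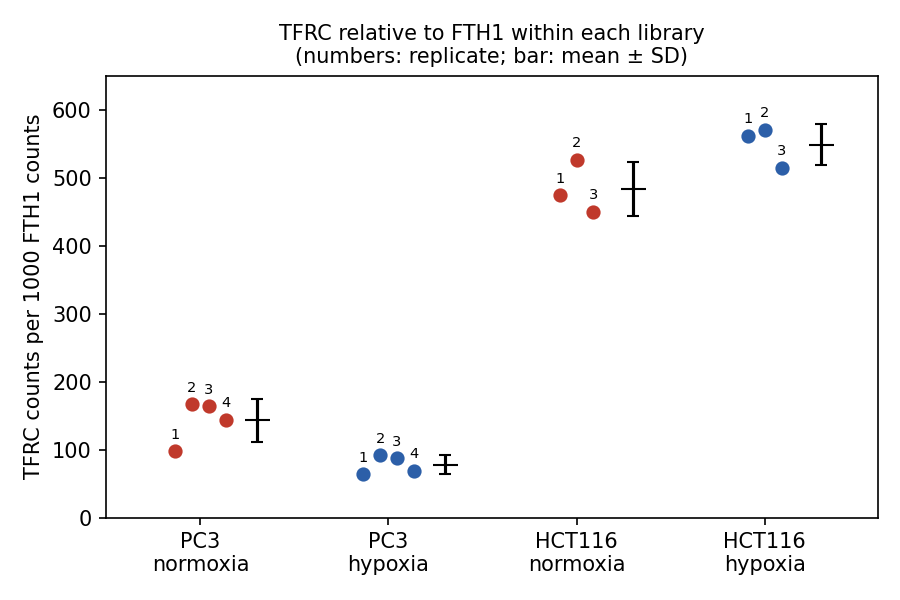
TFRC counts per 1000 FTH1 counts (y axis, from 0) in each library, by line and condition. Numbers are replicates, red is normoxia, blue is hypoxia, and bars are the mean ± SD. PC3 falls from 97.96 to 167 in normoxia to 63.8 to 91.9 in hypoxia, and HCT116 lies at 450 to 570 with an overlap of its conditions.

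NCOA4 encodes the receptor that takes ferritin to the lysosome, where its iron is released. In PC3 it stood at 169, 162, 167 and 157 CPM in normoxia and at 183, 179, 175 and 196 CPM in hypoxia. The groups did not overlap, but the log2 fold change of 0.17 (SE 0.0651, adjusted p = 0.138, edgeR) did not pass the threshold, with the block or without it. In HCT116 it stood at 212, 222 and 213 CPM in normoxia and at 212, 225 and 198 CPM in hypoxia, a log2 fold change of −0.01 (95% interval −0.16 to 0.14). NCOA4 was 1.32-fold lower in normoxic PC3 than in normoxic HCT116 (adjusted p = 3.61e-05, edgeR). It too has near-identical copies.

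SLC40A1 encodes ferroportin, the exporter of iron from the cell. It had only 121 to 371 counts per library, or 0.953 to 3.11 CPM. In PC3 it stood at 3.11, 2.60, 2.11 and 2.45 CPM in normoxia and at 2.31, 2.08, 1.83 and 1.80 CPM in hypoxia. Each pair was lower in hypoxia although the groups overlapped. The log2 fold change was −0.35 (SE 0.162, adjusted p = 0.194, edgeR), and −0.35 with the replicate block (0.0490). In HCT116 it was −0.30 (95% interval −0.72 to 0.13), with overlapping groups of 0.992 to 1.47 and 0.953 to 1.11 CPM. SLC40A1 was 2.02-fold higher in normoxic PC3 than in normoxic HCT116.

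IREB2 encodes IRP2 and ACO1 encodes IRP1, which serves as a cytosolic aconitase when it holds an iron-sulphur cluster. IREB2 stood at 51.7, 57.4, 58.4 and 54.8 CPM in normoxic PC3 and at 44.3, 50.0, 49.9 and 50.7 CPM in hypoxic PC3. These groups did not overlap. The log2 fold change was −0.19 (SE 0.0642, adjusted p = 0.0953, edgeR), past the threshold with the replicate block (0.0246), under total-count scaling (−0.29, 0.0186) and, narrowly, under upper-quartile scaling (−0.23). In HCT116, IREB2 stood at 121, 135 and 120 CPM in normoxia and 109, 112 and 123 CPM in hypoxia, a log2 fold change of −0.11 (95% interval −0.27 to 0.04).

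ACO1 ranged from 54.8 to 65.7 CPM in normoxic PC3 and from 42.6 to 70.3 CPM in hypoxic PC3, with a log2 fold change of −0.18 (95% interval −0.48 to 0.12). It was called lower without PC3 hypoxia replicate 4 (−0.33, adjusted p = 0.0399, edgeR), which held the highest value. In HCT116 it ranged from 82.4 to 93.8 and from 82.2 to 95.2 CPM, and the log2 fold change was 0.05 (95% interval −0.12 to 0.21). FBXL5 encodes the part of a ubiquitin ligase that marks IRP2 for destruction when iron and oxygen are present. It ranged from 29.2 to 39.0 and from 28.4 to 35.6 CPM in PC3 and from 35.3 to 41.4 and from 32.6 to 37.5 CPM in HCT116. Its log2 fold changes of −0.10 (95% interval −0.37 to 0.16) and −0.08 (−0.27 to 0.10) did not pass the threshold. FBXL5 overlaps FAM200B, so its counts are uncertain.

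The level of most of these genes separated the lines in normoxia. Of the 9 tested, 7 were called, near the 81.3% of all genes tested that were called, so a count of this size is no feature of iron genes. FTH1, SLC11A2 and SLC40A1 were higher in PC3, where 42.4% of all genes were, and FTL, IREB2, ACO1 and NCOA4 lower, where 38.9% were. IREB2 was 2.25-fold lower in PC3 (log2 −1.17, adjusted p = 7.01e-10, edgeR) and ACO1 1.42-fold lower (log2 −0.50, adjusted p = 0.00199). FBXL5 differed by −0.21 (adjusted p = 0.0837, edgeR) and passed without PC3 normoxia replicate 1 (−0.30, 0.0112), without both libraries of PC3 replicate 1 (−0.30, 0.00258) and under upper-quartile scaling (−0.27, 0.0382).

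Per kb of transcript, the order in normoxic PC3 was FTH1 (5344 CPM per kb), FTL (482), TFRC (178), NCOA4 (47.4), SLC11A2 (15.3), FBXL5 (9.43), IREB2 (8.79), ACO1 (8.24) and SLC40A1 (0.771). The SDs of FBXL5, IREB2 and ACO1 (1.22, 0.471 and 0.635) make these neighbours in the order indistinguishable. In normoxic HCT116 the order was FTL (1741 CPM per kb), FTH1 (1512), TFRC (175), NCOA4 (62.3), IREB2 (19.8), ACO1 (11.7), FBXL5 (10.9), SLC11A2 (10.8) and SLC40A1 (0.381), with ACO1, FBXL5 and SLC11A2 within their SDs of each other (0.811, 0.890 and 0.983). Ferritin mRNA was the most abundant in both lines and ferroportin mRNA the least abundant of those tested. The order of FTL and FTH1 in HCT116 carries the uncertainty from their copies given above.

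Other genes, 88 in all and mostly of iron metabolism, were examined as the surroundings of these 10 and are called other iron genes below. They include the 3 ligase partners of FBXL5. They also include TMPRSS2, which is not itself known as an iron gene and is among those that rose in PC3. In PC3, 79 were tested, of which 5 rose and 5 fell (12.7%, beside 11.3% of all genes), and with the replicate block 12 rose and 9 fell (26.6%, beside 28.5% of all genes in that fit). In HCT116, 77 were tested, of which 7 rose and 9 fell (20.8%, beside 25.9%). The medians were 0.04 and −0.03 on the log2 scale. None of these shares stood far from its background. Total-count scaling changed the balance of calls to 4 rises and 10 falls in PC3 and to 6 rises and 18 falls in HCT116.

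Among 14 tested genes of iron uptake and reduction, 2 rose and 2 fell in PC3 (28.6%), and 2 rose and 4 fell in HCT116 (42.9%). These shares lay above those of all genes (11.3% and 25.9%), in a small group that was not tested as a set. Beside the groups below stand the same shares of all genes, and 28.5% for the replicate block in PC3. Here and in the groups below, called genes whose changes were under 0.5 in both lines are named after their values were seen. In this group they were SLC39A14 in PC3 (a rise of 0.31 on the log2 scale) and, in HCT116, MFI2 (0.38), STEAP3 (−0.31), MCOLN1 (−0.34) and EXOC6 (−0.48). With the replicate block, 6 of the 14 were called in PC3, with CYBRD1 (0.33) and STEAP3 (0.17) added. STEAP1 and STEAP2 belong to a family of membrane reductases, some of which reduce iron in the endosome. STEAP2 stood at 29.7 to 32.5 CPM in normoxic and 17.4 to 21.4 CPM in hypoxic PC3, without overlap, a log2 fold change of −0.72 (SE 0.0784, adjusted p = 8.95e-04, edgeR). In HCT116 it was −0.10 (adjusted p = 0.349), and the difference between the lines was called (0.61, SE 0.116, adjusted p = 0.0124). STEAP1 fell in both lines, by 0.43 in PC3 (adjusted p = 0.0272, edgeR) and by 0.66 in HCT116 (0.00435). The call in PC3 was lost without PC3 normoxia replicates 2, 3 or 4 (0.0897, 0.0861 and 0.0739) or PC3 hypoxia replicates 2 or 3 (0.0754 and 0.0740).

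TFR2, a second transferrin receptor that senses transferrin iron in the liver, rose in both lines. In HCT116 it went from 7.98 to 9.49 CPM in normoxia to 10.9 to 13.6 CPM in hypoxia (log2 0.53, SE 0.101, adjusted p = 0.00359, edgeR). In PC3 it was much lower, at 16 to 33 counts per library, and its log2 fold change of 1.16 (SE 0.283, adjusted p = 0.0301, edgeR) was not called without PC3 normoxia replicates 1, 2 or 4 (0.0626, 0.0980 and 0.0840) or PC3 hypoxia replicate 2 (0.0908), nor without both libraries of replicate 1 (0.0582). In the fit over both lines its adjusted p in HCT116 was 0.0509.

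Of the genes of haem synthesis and transport, 17 were tested, and 2 rose and 1 fell in PC3 against 1 and 2 in HCT116. CPOX, an enzyme of haem synthesis, rose in both lines (log2 0.42 and 0.25), PPOX, which acts after it, fell in PC3 (−0.35), and the haem transporter SLC48A1 fell in HCT116 (−0.22). The replicate block called 6 of the 17 in PC3, with BLVRB (0.27), FECH (−0.19) and FLVCR1 (−0.27) added. HMOX1, the haem oxygenase that frees iron from haem, stood at 6.33 to 9.17 CPM in normoxic and 77.4 to 107 CPM in hypoxic PC3, a log2 fold change of 3.49 (SE 0.146, adjusted p = 1.09e-05, edgeR). In HCT116 it stood at 28.1 to 31.2 and 25.9 to 30.1 CPM, with a log2 fold change of −0.10 (adjusted p = 0.379), and the lines differed by −3.60 (SE 0.178, adjusted p = 2.50e-08).

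In the group of ferritin storage and turnover, 1 of 6 genes was called in HCT116, which was HERC2, a ubiquitin ligase of NCOA4 (log2 0.54, SE 0.0864, adjusted p = 0.00127, edgeR). Near-identical copies of HERC2 make its counts uncertain. In PC3, 0 of the 6 were called by edgeR or by DESeq2, and 1 had an unadjusted p under 0.05, while the replicate block called PROM2 (0.26, adjusted p = 0.0103, edgeR). Of the 20 genes of mitochondrial import and iron-sulphur assembly, the scaffold gene ISCU fell in PC3 (log2 −0.22) and in HCT116 (−0.47), and in HCT116 the importer SLC25A28 fell (−0.27) and the assembly factor IBA57 rose (0.41). The replicate block called 3 of the 20 in PC3, NFS1 (−0.19) among them. Of 9 genes of the cytosolic branch, NDOR1, which passes electrons to it, fell in both lines (−0.38 and −0.37), and NUBP2, a scaffold, rose in HCT116 (0.33).

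Of 4 other genes whose mRNA has a known IRE, EPAS1, which encodes HIF-2α, rose in HCT116 (log2 0.37, adjusted p = 0.0159, edgeR). In PC3, 0 of the 4 were called by edgeR or by DESeq2, and 1 had an unadjusted p under 0.05, while the replicate block called EPAS1 (0.30, adjusted p = 0.00821, edgeR). The 3 ligase partners of FBXL5 were not called in either line by either tool, and 0 had an unadjusted p under 0.05 by edgeR. Of the genes of export and systemic control, 0 of 4 were called in HCT116 by edgeR or DESeq2, with 1 at an unadjusted p under 0.05, and 1 of 6 was called in PC3, or 3 with the replicate block, which added CP (1.01) and HEPHL1 (0.31). The gene called without the block was the surface protease TMPRSS2, which is listed beside the iron protease TMPRSS6 and is not itself known as an iron gene. It stood at 16.1 to 28.0 CPM in normoxic and 30.2 to 50.5 CPM in hypoxic PC3 (log2 0.86, SE 0.214, adjusted p = 0.0335, edgeR). It was not called without PC3 normoxia replicates 2, 3 or 4 (0.102, 0.106 and 0.0903) or PC3 hypoxia replicate 2 (0.0732).

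**Figure D5:**
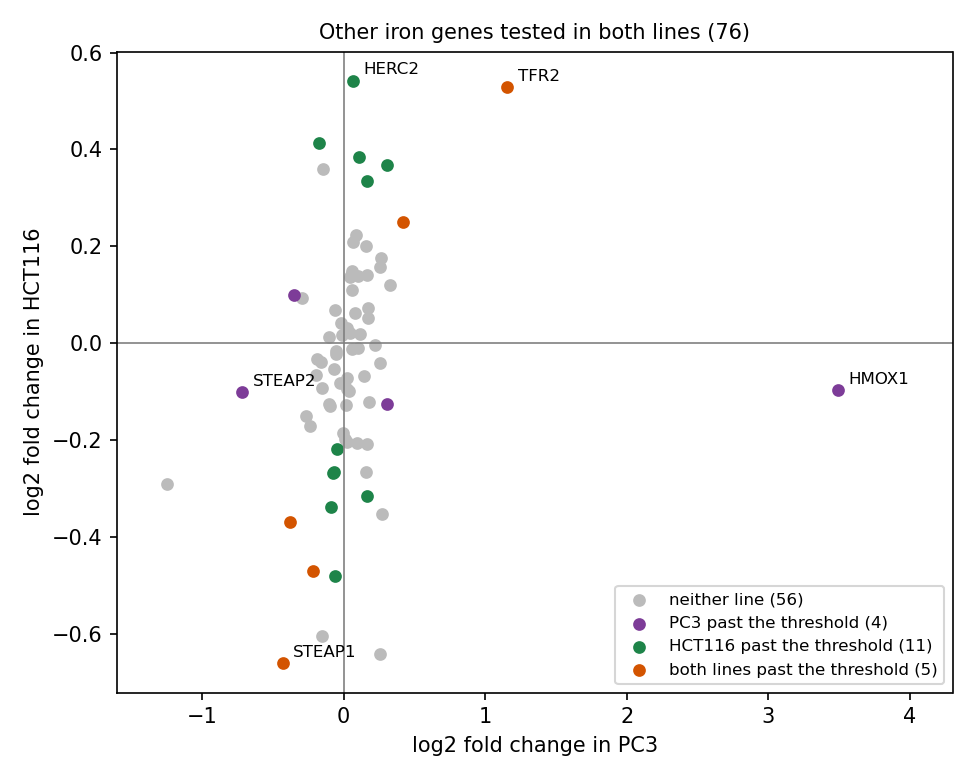
Log2 fold change in hypoxia in PC3 (x axis) and in HCT116 (y axis) for the 76 other iron genes tested in both lines, coloured by the line in which the adjusted p (edgeR) was under 0.05. Of these, 56 passed in neither line, 4 in PC3, 11 in HCT116 and 5 in both. HMOX1 lies far to the right at 3.49 and −0.10.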

How the data were processed

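Polyadenylated RNA of 14 cultures (PC3, 4 per condition; HCT116, 3 per condition) was sequenced by the study. The authors aligned the reads with HISAT2 (version 2.05) to GRCh37 after removing ERCC spike-in reads, and counted reads within RefSeq genes with HTSeq (version 0.5.4p3), intersection-strict. The deposited values are these whole-number counts per gene, without normalisation. Strandedness of counting and RefSeq release are not given in the sources used here, and ERCC counts were not used here. No row lacked a gene name.

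From the counts, edgeR (version 4.0.16, R 4.3.3) was run within each line with filterByExpr, TMM and the two-sided quasi-likelihood test, with Benjamini-Hochberg adjustment over all genes tested (14309 in PC3, 14120 in HCT116) and a threshold of 0.05. The difference between lines and the comparison of lines in normoxia used 1 fit over all 14 libraries (15493 genes). Scripts were tested on simulated data. Replicates differed beyond counting error (chi-square per gene 12.5 to 268). The PC3 replicate numbers were taken to pair the cultures: deviations of same-numbered libraries from their condition means correlated at 0.832, 0.523, 0.345 and 0.413. Each normoxic PC3 library correlated most with the hypoxic library of its own number. Libraries of unlike number reached 0.360 (normoxia replicate 4 with hypoxia replicate 2), so the pairing is less clear beyond replicate 1.

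The alternatives tried were scaling by median of ratios, by upper quartile or by total count, DESeq2 (version 1.42.0), no filter, at least 10 counts in every library, other samples in the fit, the replicate block, a log2 fold change of at least 1 as well, and each library left out. Leaving out both PC3 replicate 1 libraries was added after seeing the data. All 10 genes are named. Other iron genes are named at an adjusted p under 0.05 with a log2 fold change of at least 0.5 in size in a line, beside 8 hypoxia genes, cell markers, copies of the ferritin genes and of NCOA4 (no NCOA4 copy was analysed here), and the 3 genes most like TFRC and FTH1. Further called iron genes with smaller changes, or called with the replicate block alone, were named after their values were seen. The members and lists were chosen with earlier results of these data known. Transcript lengths and UTRs came from GENCODE on GRCh37. The values of 2 genes of the wider list are not reported here.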

Additional observations from a re-analysis of the deposited data

Results flagged for a closer look

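Within groups of 4, a library stood apart from the other 3 by Dixon's criterion in 4 of 34 groups examined, where chance gives about 1 in 20, or 1.7. FTH1 in PC3 normoxia replicate 1 was high, at 8338 CPM beside 5775 to 5808. IREB2 in PC3 hypoxia replicate 1 was low, at 44.3 CPM beside 49.9 to 50.7, and FBXL5 in the same library was high, at 35.6 CPM beside 28.4 to 29.4. HERC2 in PC3 hypoxia replicate 4 was low, at 64.1 CPM beside 94.0 to 97.9.

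The hypoxic change differed between the lines, by the test of the difference itself (HCT116 minus PC3, edgeR), for TFRC (0.91 on the log2 scale), STEAP2 (0.61), HMOX1 (−3.60), the importer gene SLC39A14 (−0.45) and IBA57 (0.57). SLC39A14 and IBA57 were named after their values were seen. For STEAP2 and HMOX1 the change was called in PC3 and not in HCT116, whereas for TFRC it was called in opposite directions.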

How the results depend on the processing

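The replicate block gave 6 of the 9 genes tested and 21 other iron genes in PC3 (4074 of all genes, beside 1620 without it). It gave 2 differences between the lines (1306 of all genes, beside 359 without it). Requiring a log2 fold change of at least 1 as well left 0 genes in PC3, in HCT116 and in the difference between the lines, 4 between the lines in normoxia, and 2 and 0 other iron genes in PC3 and HCT116. Of all genes tested, this left 204 of 14309 in PC3 and 291 of 14120 in HCT116. It left 107 of 15493 in the difference between the lines and 6941 of 15493 between the lines in normoxia. One fit over both lines gave 1 of the genes and 10 other iron genes in HCT116, where it called 1733 of all genes, beside 3658 in the main fit. Leaving out each library in turn gave 0 to 2 of the genes and 3 to 13 other iron genes in PC3, and 1 to 2 and 11 to 18 in HCT116. The calls over all genes moved as well. In PC3 they ranged from 553 (without normoxia replicate 3) to 2085 (without hypoxia replicate 4). In HCT116 they ranged from 2560 (without normoxia replicate 2) to 3339 (without normoxia replicate 3). The difference of TFRC between the lines was called each time.

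Values that changed sign were small and none was called. Under total-count scaling, ACO1 in HCT116 was −0.0462 and HERC2 in PC3 −0.0337. FBXL5 in the difference between lines was −0.00462 under median-of-ratios scaling and −0.00453 by DESeq2. TFRC between the lines in normoxia was −0.0410 under upper-quartile scaling. Over the fits that each lacked 1 library, the sign also turned for FBXL5 (−0.0835 to 0.0923) and SLC40A1 (−0.110 to 0.158) in the difference between lines, for TFRC between the lines in normoxia (−0.0181 to 0.0629), and for ACO1 (−0.00679 to 0.0931) and NCOA4 (−0.0572 to 0.0406) in HCT116. The cause was not tested.

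Scaling by total count put the median log2 fold change over all genes at −0.10 in PC3, and the split of calls went from 863 higher and 757 lower to 562 and 1733. Relative to that median, TFRC was at −0.46 and SLC11A2 at −0.51. In HCT116 the split went from 2061 higher and 1597 lower to 1286 and 3146. The HCT116 replicate numbers did not pair the cultures throughout (r = 0.0664, 0.373 and −0.0751, beside 0.202 for normoxia replicate 1 with hypoxia replicate 3). The block there left 2 of the 9 genes tested and 16 other iron genes called, beside 3754 of all 14120 genes tested. No block could be fitted for the lines in normoxia, where number and line are nested. SLC40A1 (121 to 371 counts per library) and, in PC3, TFR2 (16 to 33) rest on few counts.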
